A study of Mus musculus with 7 samples.

Results

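The alpha-1-antitrypsin cluster of the mouse is represented here by 7 genes on the minus strand of chromosome 12: the near-identical copies Serpina1a, Serpina1b, Serpina1c, Serpina1d and Serpina1e, and their neighbours Serpina6 and Serpina10. Hotspots, which are stretches where nuclease cleavage tags cluster above background, were taken where they overlapped a gene body or the 20 kb on either side of it. This gave 33 of 60910 Benzonase hotspots, 26 of 57675 Cyanase hotspots and 42 of 72286 DNase I hotspots, or 101 of 190871 in all, in 4 windows that cover 309319 bases of the mm9 genome. The lists come from liver of male C57BL/6 mice aged 8 weeks, and the labels name no allele and no treatment of the animals. Benzonase and Cyanase, endonucleases that work in detergent, had been applied to pulverized frozen tissue at 0.25, 1 and 4 U, with 1 library for each concentration, and the list of each enzyme was called on pooled tags. DNase I had been applied to nuclei purified from fresh liver, and its list is headed as pooled liver data from 2 libraries, which the study describes as replicates, although the labels give 1 sample. Nuclease and starting material therefore cannot be told apart when DNase I is set against the other two.

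Alpha-1-antitrypsin is a serine protease inhibitor (serpin) that hepatocytes secrete into blood, where it is the main inhibitor of neutrophil elastase. Humans have a single working gene, whereas the mouse has several tandem copies. Serpina6 encodes corticosteroid-binding globulin, the carrier of glucocorticoids in plasma, and Serpina10 encodes the protein Z-dependent protease inhibitor, which acts on activated coagulation factor X. The liver promoter of alpha-1-antitrypsin is a textbook target of HNF1, a homeodomain factor of hepatocytes.

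No tag numbers accompany the hotspots, so the depth behind each is unknown, and each list is a single pooled list without replicates. No test was therefore made, and differences between nucleases are given as counts beside the same counts over the genome. As a check of the tissue, a transcription start site (TSS) lay in a hotspot of all 3 nucleases at 6 of 6 hepatocyte marker genes. This was so at 0 of 6 markers of other tissues and at 0 of 6 markers of other liver cells, although some were marked by 1 or 2 of the nucleases. Among the markers of other tissues, Benzonase marked 0, Cyanase 1 and DNase I 1, and among those of other liver cells Benzonase marked 3, Cyanase 3 and DNase I 2.

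The copies differ at few bases. Over their gene bodies the 10 pairs of copies were between 95.6% and 96.8% identical, with Serpina1a and Serpina1c the closest pair. The longest run shared without a mismatch around the promoter had 59 bases, and the annotated start nearest to it lay between 96 and 129 bases downstream of its first base. The 200 bases that hold it are shown for each copy, since all of the promoter hotspots covered the run. They are read from mm9 on the minus strand, 5′ to 3′, with the shared run in capitals.
Serpina1a chr12:105101794-105101993: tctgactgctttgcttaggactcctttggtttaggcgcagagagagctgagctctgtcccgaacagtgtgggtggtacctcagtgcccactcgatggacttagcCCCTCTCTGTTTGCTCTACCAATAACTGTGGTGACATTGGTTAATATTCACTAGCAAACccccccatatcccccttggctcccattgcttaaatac
Serpina1b chr12:104976369-104976568: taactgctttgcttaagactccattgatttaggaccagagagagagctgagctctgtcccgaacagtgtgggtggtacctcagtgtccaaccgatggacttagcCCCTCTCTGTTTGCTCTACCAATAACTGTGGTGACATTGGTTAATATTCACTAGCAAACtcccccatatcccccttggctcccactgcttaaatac
Serpina1c chr12:105143131-105143330: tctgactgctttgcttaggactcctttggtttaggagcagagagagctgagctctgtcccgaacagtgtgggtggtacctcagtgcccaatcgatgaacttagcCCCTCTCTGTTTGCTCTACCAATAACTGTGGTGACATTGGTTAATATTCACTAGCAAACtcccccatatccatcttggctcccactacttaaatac
Serpina1d chr12:105011803-105012002: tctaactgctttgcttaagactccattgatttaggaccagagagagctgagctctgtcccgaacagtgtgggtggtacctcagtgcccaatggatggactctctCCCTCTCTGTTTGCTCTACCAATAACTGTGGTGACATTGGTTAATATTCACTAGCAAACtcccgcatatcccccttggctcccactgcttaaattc
Serpina1e chr12:105195129-105195328: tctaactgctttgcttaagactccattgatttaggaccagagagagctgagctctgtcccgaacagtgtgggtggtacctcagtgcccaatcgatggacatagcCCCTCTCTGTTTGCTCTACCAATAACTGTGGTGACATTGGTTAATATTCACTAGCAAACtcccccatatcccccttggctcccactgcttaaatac

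The run held 1 match to GTTAAT, the half-site of the HNF1 motif, and 1 match to TGTTTGC, a form of the motif of FOXA factors. It also held CCAAT once on each strand, and the match on the opposite strand shared 1 base with GTTAAT. On both strands, GTTAAT was found in 4.36%, TGTTTGC in 3.17% and CCAAT in 30.6% of the 200 bases upstream of 22360 protein-coding genes. TGTTTAC, another form of the FOXA motif, was found in 0 of the 5 copies and in 2.12% of those genes. These matches describe the letters and not the binding of a factor.

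A tag that fits several places cannot be assigned by unique alignment, so the share of 36-base words that occur once in mm9 was counted at every position. This share was 84.9% over positions sampled along the genome and between 97.1% and 97.8% at the middles of the hotspots in the 3 lists. Serpina6 was almost wholly unique, at 99.9%, and Serpina10 reached 59.5%. The copies were far lower, with 48.6% in Serpina1b, 47.3% in Serpina1e, 43.9% in Serpina1d, 37.8% in Serpina1a and 34.3% in Serpina1c. When a word also had to differ at more than 2 bases from all others in the cluster, the copies fell to between 5.47% and 9.94%, while Serpina6 stayed at 99.9%. For Benzonase and Cyanase the study counts sequencing depth as uniquely aligning tags. The tag length, the mismatches allowed and the handling of multiply aligning tags when hotspots were called are not given in the sources used here, so the unique shares describe the sequence and not the tags that were kept.

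**Figure D1:**
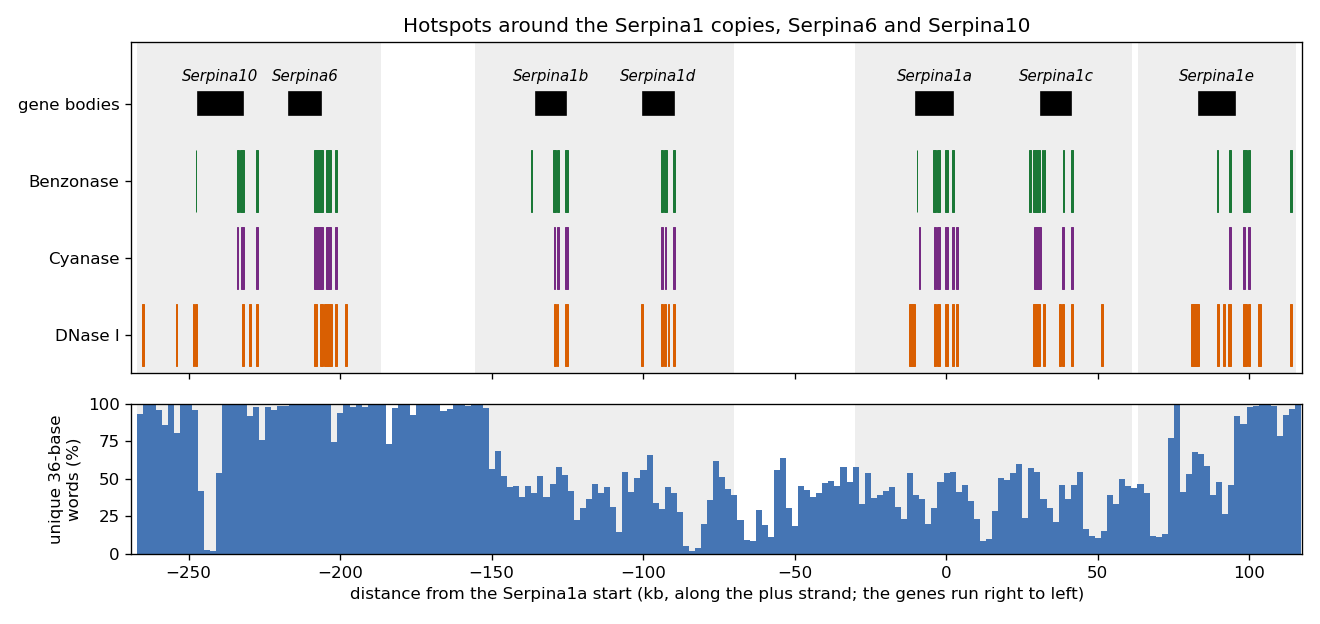
Hotspots of the 3 nucleases (coloured blocks) and the 7 gene bodies (black) against the distance from the Serpina1a start in kb, with the share of unique 36-base words in bins along the same axis. Grey marks the 4 windows. Unique words fill nearly the whole of the Serpina6 body (99.9%) and between 34.3% and 48.6% of the copies, and every copy holds hotspots of each nuclease.

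Merging overlapping hotspots gave 47 regions. All 3 nucleases held 22 of them, or 46.8% (95% Wilson interval 33.3% to 60.8%), beside 40.0% of the 94491 merged regions of the genome. DNase I alone held 14, or 29.8% (18.7% to 44.0%), beside 28.3%. Regions of Benzonase and Cyanase without DNase I numbered 1, or 2.13% (0.377% to 11.1%), beside 10.2%. That one, chr12:104867745-104868316, lay in an intron of Serpina10. Benzonase with DNase I held 4 regions, or 8.51% (3.36% to 19.9%), beside 3.49%, and Benzonase alone held 4, beside 9.31%. Cyanase with DNase I held 1, or 2.13% (0.377% to 11.1%), beside 1.98%, and Cyanase alone held 1, beside 6.80%. The intervals cover counting error only, and each includes the share in the genome.

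Cyanase hotspots were the ones most often met by the others. A Benzonase hotspot overlapped 24 of 26 Cyanase hotspots, or 92.3% (75.9% to 97.9%), beside 85.4% of the whole list. A DNase I hotspot also overlapped 24 of 26 (92.3%, 75.9% to 97.9%), beside 71.1%, which lies outside this interval. Neighbouring hotspots are not independent, and no test was made of this difference. Of the 33 Benzonase hotspots, 25 overlapped Cyanase (75.8%, 59.0% to 87.2%, beside 79.6%) and 28 overlapped DNase I (84.8%, 69.1% to 93.3%, beside 69.3%). Of the 42 DNase I hotspots, 28 overlapped at least 1 of the other lists (66.7%, 51.6% to 79.0%, beside 63.0%). Median widths were 715 bp for Benzonase, 705 bp for Cyanase and 738 bp for DNase I, beside 652, 641 and 649 bp in the whole lists. In the 22 regions that all 3 held, Benzonase covered the most bases in 10, DNase I in 10 and Cyanase in 2. The regions of all 3 nucleases had a median GC content of 49.9%, and those of DNase I alone 47.6%.

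At the TSS, DNase I had a hotspot at 7 of the 7 genes, Benzonase at 6 and Cyanase at 6. Over 22365 protein-coding genes these shares were 47.4% for DNase I, 57.4% for Benzonase and 55.7% for Cyanase. All 3 nucleases together marked 6 of the 7 genes, beside 46.1% of all genes. The exception for Benzonase and Cyanase was Serpina1e. Among genes of liver protease inhibitors outside the cluster, all 3 nucleases marked 14 of 16, the exceptions being Serpinf1 (no DNase I) and Serpina7 (no Cyanase). Of 15 other clade A serpin genes on the same chromosome, 4 were marked by all 3, which were Serpina3n, Serpina3k, Serpina3m and Serpina11, and Serpina3f was marked by Cyanase and DNase I.

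The promoter hotspots of the copies had closely similar bounds, apart from the downstream edge in Serpina1e. All 15 of them, 1 for each copy and nuclease, covered the whole shared run. Counted from the first base of the run, with negative values upstream, their upstream edges lay between -498 and -358. The 12 hotspots of Serpina1a to Serpina1d had downstream edges between 334 and 482, beyond the annotated start. In Serpina1e the DNase I hotspot also ended at 334, but the Benzonase hotspot ended at 67 and the Cyanase hotspot at 73, short of the start of Serpina1e-002 at 116. The edges missed that start by 49 and 43 bp. Both hotspots were the narrowest of their nuclease at any of these promoters, at 494 bp for Benzonase (median 750 bp over the copies) and 487 bp for Cyanase (median 792 bp). DNase I hotspots at the promoters ranged from 739 to 957 bp.

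In Serpina1a the promoter hotspots were chr12:105101533-105102247 for Benzonase, chr12:105101541-105102248 for Cyanase and chr12:105101516-105102254 for DNase I. In Serpina1b they were chr12:104975982-104976886, chr12:104976014-104976962 and chr12:104975988-104976944 in the same order. In Serpina1c they were chr12:105142860-105143659, chr12:105142796-105143696 and chr12:105142892-105143652. Each of these 9 covered the first exon, which ended at position 157 from the run in every copy. In Serpina1d the hotspots were chr12:105011563-105012312, chr12:105011526-105012317 and chr12:105011464-105012315. In Serpina1e they were chr12:105195157-105195650, chr12:105195151-105195637 and chr12:105194890-105195642, so that the first exon of Serpina1e-002 was covered by DNase I and by neither of the other nucleases.

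The share of unique words on the side where these hotspots ended early was low in Serpina1e but lower in Serpina1b. Between 30 and 300 bases downstream of the first base of the run, this share was 40.6% in Serpina1e, below 60.9% in Serpina1d, 50.2% in Serpina1a and 45.8% in Serpina1c but above 23.6% in Serpina1b, where all 3 hotspots reached 450 or beyond. The part of unique alignment in this edge was not tested. A further start of Serpina1e, that of Serpina1e-001 at chr12 position 105197185, lay 1535 bp or more from a hotspot of any nuclease.

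**Figure D2:**
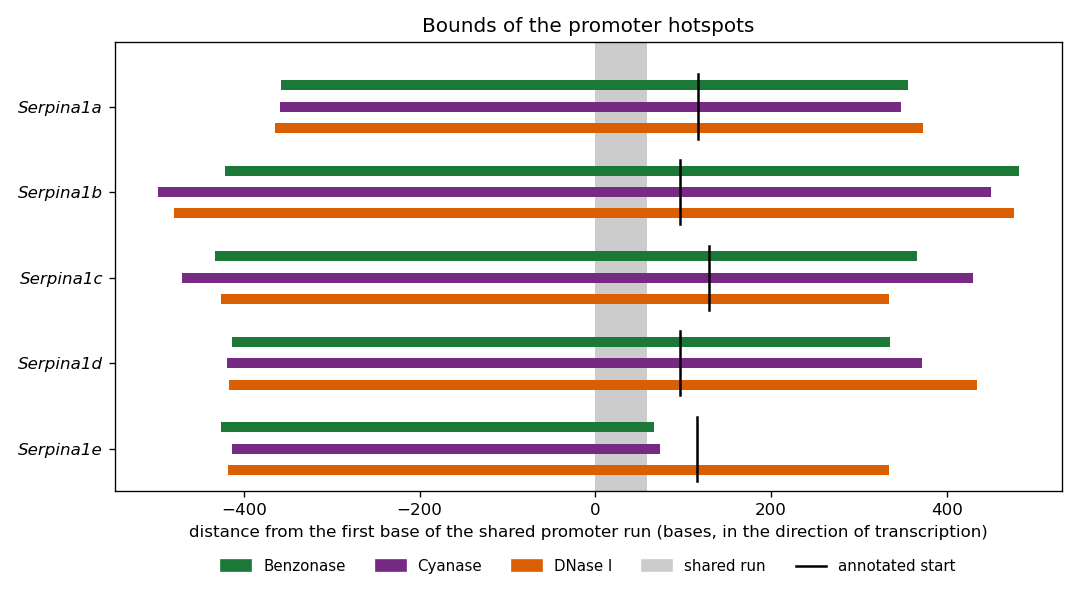
Promoter hotspots of the 5 copies (rows) for Benzonase, Cyanase and DNase I, drawn from upstream to downstream edge in bases from the first base of the shared run (grey). Black lines mark the annotated start nearest to the run. The Benzonase and Cyanase bars of Serpina1e end at 67 and 73, before the start at 116.

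Hotspots around the copies were set on the scale of Serpina1a by aligning the copies, which gave 10 stretches with a hotspot in at least 1 copy. They are numbered here in the direction of transcription, and their positions count from the first base of the shared run. Stretch 3, the promoter, was the one held by all 3 nucleases in 5 of 5 copies. In 3 stretches at least 1 nuclease had a hotspot in every copy, namely the promoter, stretch 6 and stretch 9. Stretch 9 was joined through wide hotspots. Its hotspots in Serpina1b and Serpina1d matched separate parts of Serpina1a, chr12:105090197-105090559 and chr12:105091166-105091784. Within the copies and 5 kb on either side, 18 of 24 Benzonase hotspots had a Benzonase hotspot at the matching place of at least 1 other copy. This held for 12 of 18 Cyanase and 20 of 25 DNase I hotspots. A match in all 4 other copies was found for 5 Benzonase, 5 Cyanase and 10 DNase I hotspots.

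**Figure D3:**
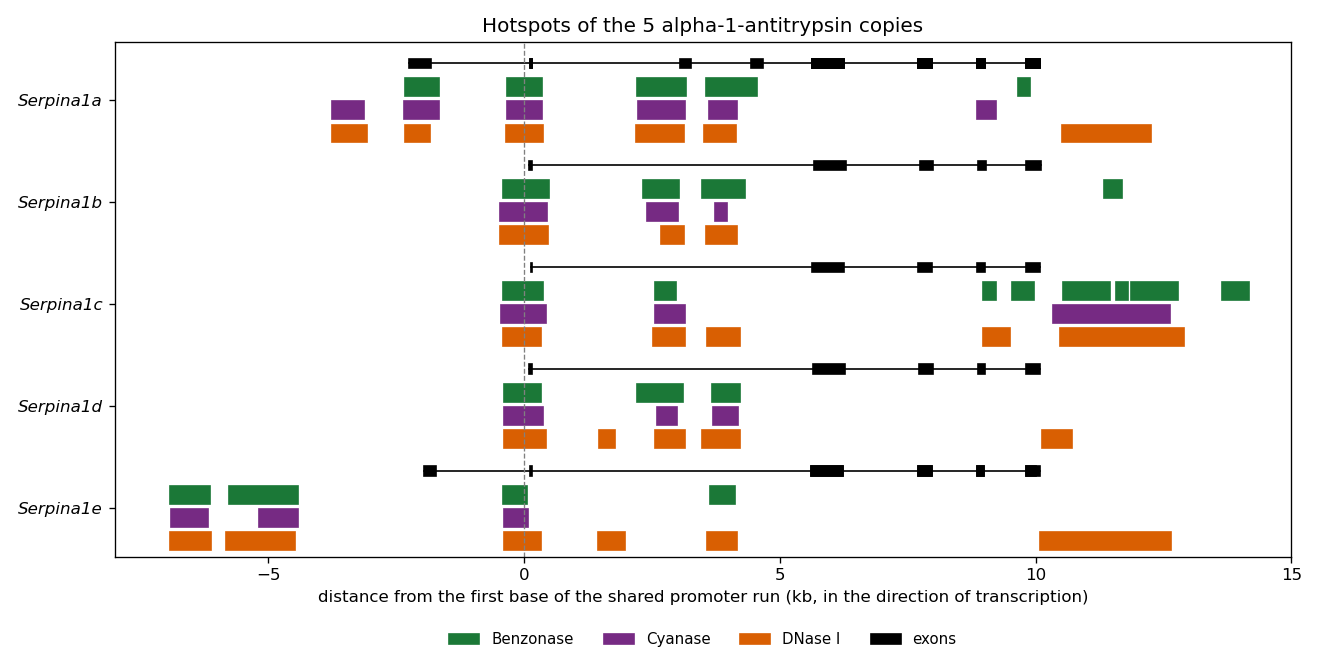
Hotspots of Benzonase, Cyanase and DNase I around each of the 5 copies, in kb from the first base of the shared run (dashed line), with exons in black. The promoter hotspots line up in all copies, the hotspots near 2 to 3 kb are absent in Serpina1e, and the wide DNase I hotspots lie at the 3′ ends, that of Serpina1e reaching 14 bases into the last exon.

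Inside the genes, hotspots of all 3 nucleases recurred in the first intron. In the 5-exon transcripts that start near the run, this intron followed position 157 and reached the second exon, which began between 5602 and 5662. Serpina1a-201 and Serpina1e-001 start farther upstream, so that their first intron also spans the run. Stretch 5, from 2169 to 3163, was held by all 3 nucleases in Serpina1a, Serpina1b, Serpina1c and Serpina1d, and by none in Serpina1e. The Benzonase hotspots there had widths of 984, 722, 425 and 920 bp in these 4 copies, the Cyanase hotspots 951, 636, 596 and 405 bp, and the DNase I hotspots 963, 464, 642 and 604 bp. In Serpina1a it touched the second exon of Serpina1a-001, an exon that the other copies are not annotated to have. The matching place in Serpina1e, chr12:105192078-105193049, was 91.9% identical to Serpina1a, and 49.2% of its words were unique. That share was 35.0% in Serpina1d and 48.7% in Serpina1a, where all nucleases had a hotspot, so the place in Serpina1e was not the least unique of the copies. On the scale of Serpina1a, 326 bases were common to all hotspots of this stretch. The 100 bases nearest to the middle of that part that align without a gap are shown. Hotspots of all 3 nucleases overlapped this place in 4 copies and none did in Serpina1e. The sequences run from 2785 to 2884. They are read from mm9 on the minus strand, 5′ to 3′, with capitals at bases that differ from Serpina1a.
Serpina1a chr12:105099005-105099104: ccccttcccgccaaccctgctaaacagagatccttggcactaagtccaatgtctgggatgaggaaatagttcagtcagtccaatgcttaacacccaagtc
Serpina1b chr12:104973566-104973665: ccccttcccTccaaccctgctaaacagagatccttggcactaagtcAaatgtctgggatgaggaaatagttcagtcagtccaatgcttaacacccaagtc
Serpina1c chr12:105140359-105140458: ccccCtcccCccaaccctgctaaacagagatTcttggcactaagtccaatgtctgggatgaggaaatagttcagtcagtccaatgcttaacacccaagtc
Serpina1d chr12:105008990-105009089: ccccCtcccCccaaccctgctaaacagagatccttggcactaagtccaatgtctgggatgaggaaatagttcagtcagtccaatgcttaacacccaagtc
Serpina1e chr12:105192357-105192456: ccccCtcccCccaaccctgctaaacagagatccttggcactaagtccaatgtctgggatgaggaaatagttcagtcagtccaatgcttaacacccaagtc
Serpina1d and Serpina1e differed at 0 of these 100 bases, and 34.0% of the words that start there were unique in each. The bases were chosen to align without a gap, and the whole hotspots were less alike. The places in Serpina1e that match the Serpina1d hotspots were 93.6% identical for Benzonase, 89.4% for Cyanase and 90.9% for DNase I.

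Stretch 6, from 3439 to 4562, also lay in the first intron and was held by all 3 nucleases in Serpina1a, Serpina1b and Serpina1d. In Serpina1c only DNase I had a hotspot, of 672 bp, and in Serpina1e Benzonase (508 bp) and DNase I (604 bp) had one while Cyanase had none. The unique share of the matching place was 36.2% in Serpina1c and 42.0% in Serpina1e, against 35.9%, 47.4% and 40.0% in the copies held by all 3. Stretch 4, from 1433 to 1979, had DNase I hotspots of 321 bp in Serpina1d and 545 bp in Serpina1e and none of the other nucleases.

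Upstream of the promoter, Serpina1a stood apart from the other copies. Stretch 2, from -2362 to -1658, had hotspots of 691 bp with Benzonase, 702 bp with Cyanase and 509 bp with DNase I in Serpina1a. These covered all or most of the first exon of Serpina1a-201, whose start at chr12 position 105104137 lay in the hotspots of all 3 nucleases. The matching place had no hotspot in Serpina1c, where it was 93.6% identical and 72.1% of its words were unique, more than the 63.3% of Serpina1a. With up to 2 mismatches within the cluster the order was the opposite, at 7.23% in Serpina1c and 12.2% in Serpina1a. It had none in Serpina1b (38.8% unique) or Serpina1d (42.5% unique) either. In Serpina1e too little of the stretch aligned for the whole of it to be compared. Part of the Serpina1a DNase I hotspot did align there, to chr12:105196967-105197232, which was 93.6% identical and held no hotspot. Stretch 1, from -3778 to -3062, was found in Serpina1a with Cyanase (636 bp) and DNase I (717 bp).

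Serpina1e had further upstream hotspots, for which no aligned place was found in the other copies. Only the gene bodies and 5 kb on either side were aligned. In Serpina1b, Serpina1c and Serpina1d this ended short of most of the matching distance from the run, so a counterpart there was not tested. All 3 nucleases held chr12:105199641-105201067 and chr12:105201345-105202157, in which 98.9% and 98.2% of words were unique. In the first, the Benzonase hotspot was 1379 bp, the Cyanase hotspot 783 bp and the DNase I hotspot 1371 bp wide. In the second they were 791, 746 and 813 bp wide. Farther upstream, DNase I alone held chr12:105204787-105205577, and DNase I with Benzonase held chr12:105215167-105215767.

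The 3′ ends of the copies carried the widest DNase I and Cyanase hotspots of the cluster. In stretch 9, from 10077 to 12944, DNase I had hotspots of 2576 bp in Serpina1e, 2435 bp in Serpina1c, 1748 bp in Serpina1a and 601 bp in Serpina1d. In the DNase I list 99.8% of hotspots were no wider than the first of these, which reached 14 bases into the last exon of Serpina1e-001. Serpina1c was the copy held by all 3 nucleases there, with 3 Benzonase hotspots that summed to 2130 bp and 1 Cyanase hotspot of 2301 bp. In Serpina1b the stretch had 1 Benzonase hotspot, of 363 bp, and no other. Near the last exons, stretches 7 and 8 had short hotspots in Serpina1a and Serpina1c. Stretch 7 had a Cyanase hotspot of 398 bp over exon 5 of Serpina1a-001, and Benzonase (289 bp) and DNase I (539 bp) hotspots over part of exon 4 of Serpina1c-001. Stretch 8 had Benzonase hotspots of 251 bp in Serpina1a and 444 bp in Serpina1c over part of the last exon. Stretch 10, beyond stretch 9, had a Benzonase hotspot of 545 bp in Serpina1c.

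**Figure D4:**
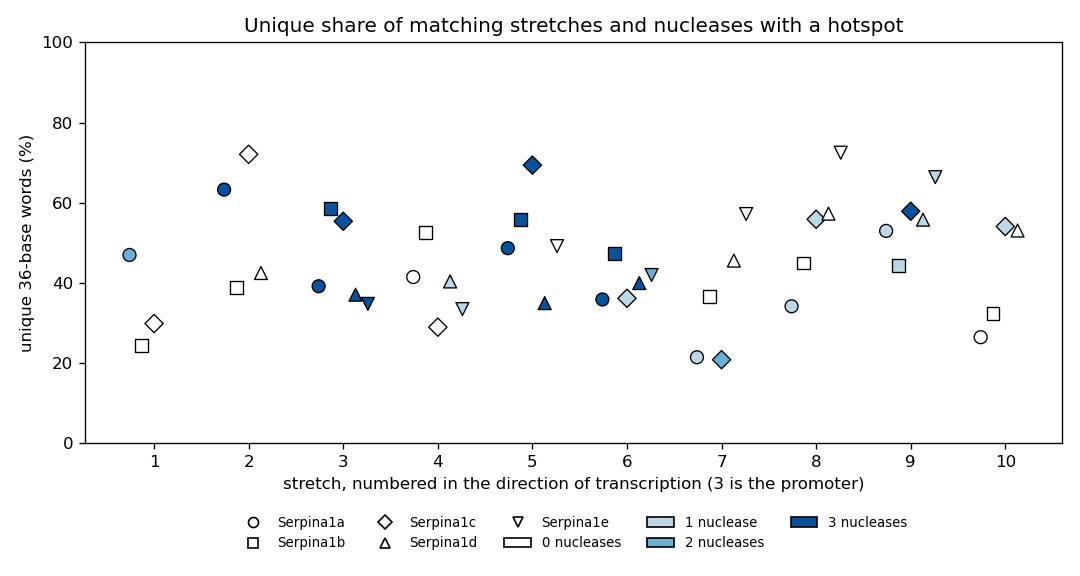
Share of unique 36-base words in each of the 10 stretches (horizontal axis) for every copy aligned over at least 50% of the stretch (symbols). Darker fill marks more nucleases with a hotspot. Places with and without hotspots span a similar range, from 20.9% to 69.4% and from 24.4% to 72.5%.

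Over the 10 stretches and 5 copies, 28 places had a hotspot of at least 1 nuclease and 18 aligned places had none. For the other 4, no alignment covered at least 50% of the stretch. The median unique share was 45.7% at the places with a hotspot and 43.8% at those without. At the level of single positions, more of the unique than of the repeated positions lay in hotspots. Within the copies and 5 kb on either side, this was 19.5% against 12.9% for Benzonase, 16.0% against 10.1% for Cyanase and 26.1% against 17.3% for DNase I. In the window of Serpina10 and Serpina6 it was 10.6% against 2.60%, 9.12% against 2.37% and 13.6% against 4.84%. The 5 kb flanks take in the upstream regions of Serpina1e, with 98.9% and 98.2% unique words, and shares without them were not counted. All these shares describe neighbouring positions, which are not independent, and what a missing hotspot owes to unplaced tags was not tested.

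The window of Serpina6 had the densest hotspots of the 7 genes with Cyanase and DNase I. It overlaps the window of Serpina10, and its counts include hotspots at the Serpina10 promoter. Both windows together held 8 Benzonase, 8 Cyanase and 14 DNase I hotspots. The window of Serpina6 held 7 Benzonase, 8 Cyanase and 10 DNase I hotspots, or 13.8, 15.8 and 19.8 per 100 kb. Medians over the windows of all protein-coding genes were 3.83, 3.61 and 4.24. The window of Serpina1c exceeded that of Serpina6 with Benzonase, at 16.0 per 100 kb. The promoter of Serpina6 lay in hotspots of 1561 bp with Benzonase (chr12:104894450-104896010), 1504 bp with Cyanase (chr12:104894474-104895977) and 889 bp with DNase I (chr12:104895089-104895977). The Cyanase and DNase I hotspots had the same upstream edge, and the DNase I hotspot reached less far into the gene. All 3 nucleases also held an intronic region at chr12:104893182-104894448 and upstream regions at chr12:104897173-104898957 and chr12:104900113-104900749. DNase I alone held chr12:104896328-104896984 and chr12:104903294-104904063.

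At Serpina10, the promoter hotspot was 1284 bp wide with Benzonase, 1032 bp with Cyanase and 749 bp with DNase I, and it covered the starts of Serpina10-001 and Serpina10-002. All 3 nucleases held an upstream region at chr12:104873884-104874645. DNase I had 7 hotspots in the window of Serpina10, against 4 with Benzonase and 3 with Cyanase, some of them also counted for Serpina6. Those of DNase I alone included chr12:104871610-104872397 upstream and chr12:104853111-104853694 beyond the 3′ end.

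Of the other 9 genes in the windows, 6 were pseudogenes, and 0 of these had a hotspot in their body. The share of pseudogene bodies with a hotspot over the genome was not counted, so this count has nothing to be read against. All 6 overlapped windows in which 43.5% or 37.7% of words were unique. Gm46, a serpin gene named Serpina16 by RefSeq, had no hotspot in its body either. The start of B430119L08Rik, a noncoding transcript on the plus strand within Serpina1c, lay in a hotspot with Benzonase and DNase I and not with Cyanase. Ppp4r4, whose 3′ end reaches into the window of Serpina10, had its start outside the windows.

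The Mup genes, another cluster of near-identical copies that code for urinary proteins made in liver, were set beside these. In the Mup cluster 20.8% of words were unique, against 57.3% in the 4 windows of the alpha-1-antitrypsin cluster. These 4 include the window of Serpina10 and Serpina6, which are not near-identical copies, where 89.3% of words were unique. Per 100 kb there were 3.42 Benzonase, 3.52 Cyanase and 6.83 DNase I hotspots in the Mup cluster, against 10.7, 8.41 and 13.6. Per 100 kb of unique positions these became 16.4, 16.9 and 32.8, against 18.6, 14.7 and 23.7. All 3 nucleases marked the start of 3 of 21 Mup genes and of 4 of 5 alpha-1-antitrypsin copies. In the cluster of Serpina3 genes, with 85.9% unique words, there were 5.65, 5.65 and 7.43 hotspots per 100 kb. Counted over unique positions, the Mup cluster was denser than the 4 windows for Cyanase and DNase I, while over all positions it was sparser. Densities without the window of Serpina10 and Serpina6 were not counted. This order may therefore not hold for the near-identical copies alone.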

How the data were processed

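Members and gene lists were chosen with earlier results of these data known. The authors sequenced tags from liver chromatin, aligned them to mm9 with Eland or Bowtie, pooled them per nuclease and called hotspots. The deposited lists give chromosome, start and end only, with no tag counts. GEO's labels list 3 Benzonase, 3 Cyanase and 1 DNase I samples. The files were read as counting from 0, and printed positions count from 1. Hotspots sharing at least 1 base were merged. Annotation was GENCODE M1 on NCBIM37 (mm9). A gene was scored when a TSS of a protein-coding transcript lay in a hotspot. Words of 36 bases, an assumed tag length, were counted over both strands of the whole reference. Copies with 5 kb on either side were aligned with blastn 2.17.0 (E value 1e-20, alignments of at least 200 bases covering at least 50% of the hotspot). Python 3.11.15, numpy 2.4.6, pandas 2.3.3, numba 0.67.0, pysam 0.24.0 and matplotlib 3.10.9 were used. The word counting and the merging were tested on simulated data. Named genes were the 7 listed, all genes overlapping their windows, and fixed comparison lists with the exceptions named. Single concentrations were not analysed here.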

Additional observations from a re-analysis of the deposited data

How the results depend on the processing

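No paired analysis was possible because the hotspots come from 1 pooled list per nuclease and no test was made. For the same reason no library could be left out. Counting hotspots in gene bodies only gave 21 for Benzonase, 18 for Cyanase and 22 for DNase I in place of 33, 26 and 42, so that Benzonase and DNase I came close in number. The unique shares of the genes moved with the tag length. With 25-base words they were 58.4% in Serpina10, 99.4% in Serpina6, 36.1% in Serpina1b, 31.8% in Serpina1d, 26.9% in Serpina1a, 23.9% in Serpina1c and 34.1% in Serpina1e. With 50-base words they were 61.0%, 100%, 60.9%, 57.3%, 49.9%, 44.7% and 60.5% in the same order. With up to 2 mismatches within the cluster they were 8.65% in Serpina1b, 8.66% in Serpina1d, 5.77% in Serpina1a, 5.47% in Serpina1c and 9.94% in Serpina1e. Of the 33 alternatives to a count, 31 stayed within 1.5 times of it, and the other 2 were the gene-body counts of Benzonase and DNase I. Of the 21 alternatives to a unique share, 5 differed from it by over 1.5 times, all of them the copies with up to 2 mismatches. Scoring the copies by the shared promoter run in place of the annotated start, an alternative chosen after seeing the data, gave 7 of 7 genes for each nuclease. With the outermost start only, DNase I marked 6 genes in place of 7. Regions held by all 3 nucleases numbered between 16 and 21 under the alternatives, against 22. The depth behind a hotspot is unknown, so the absence of a hotspot does not show closed chromatin.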

Other observations

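The shared run of 59 bases occurred at 6 places in mm9, and the sixth lay outside the windows at chr12:105066280-105066338, 5535 bp from the pseudogene Gm8893. The surrounding 751 bases were 97.6% identical to the Serpina1a promoter, more than any other copy. Hotspots of all 3 nucleases covered the run there, with widths of 478 bp for Benzonase, 538 bp for Cyanase and 648 bp for DNase I. Unique words made up 41.0%, 40.9% and 30.1% of these hotspots. No protein-coding start is annotated within the place, and a transcript from it was not tested.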
